A study of Mus musculus with 8 samples.

Results

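The lysosomal genes of peritoneal macrophages (pMacs) were compared between WT and CD1d-KO mice. The set holds 44 genes, chosen by name with earlier results of these data known. They cover acid hydrolases, lysosomal membrane and associated proteins, subunits of the proton pump that acidifies the lysosome, and the transcription factors that govern them. The 44 were matched to Ensembl gene IDs in a GRCm38 annotation, are all protein-coding, and make up 0.0902% of the 48795 gene IDs quantified. All 44 passed the filter on low counts, among 13040 genes in all. They comprise 9 peptidases, 11 glycan and lipid hydrolases, 1 enzyme that tags hydrolases for the lysosome, 7 membrane and associated proteins, 12 proton pump genes and 4 regulators of the MiT/TFE family.

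Polyadenylated RNA of unstimulated pMacs recovered by peritoneal lavage was sequenced in 8 libraries, 4 from WT and 4 from CD1d-KO mice, numbered 1, 2, 3 and 5 in each genotype. The mice of the study were 8 to 16 weeks old. The study names littermates as the WT controls of this experiment. Its methods list a pair of CD1d-KO lines, CD1d flox mice crossed to PGK-Cre, a ubiquitous deleter, and B6.129S6-Del(3Cd1d2-Cd1d1)1Sbp/J, a germline deletion of both CD1d genes, and do not state which line gave these libraries. Either line lacks CD1d in every cell and not in macrophages alone, and such mice also lack NKT cells, the T cells that CD1d selects.

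The lysosome is the acidic compartment in which macrophages break down what they engulf. Hydrolases reach it from the Golgi on mannose 6-phosphate tags, the vacuolar ATPase pumps protons in to give them the acid they need, and heavily glycosylated membrane proteins line and protect it. TFEB, TFE3 and MITF switch many of these genes on together by binding an E-box in their promoters, the CLEAR element, and the mTORC1 kinase on the lysosomal surface holds them in the cytosol when nutrients are plentiful. CD1d itself recycles through this compartment, where it is loaded with lipids with the help of lysosomal proteins.

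The E-box was looked for in the promoters, because it is the sequence that the MiT/TFE factors bind. RefSeq promoter windows (assembly GRCm38.p6) of 300 bases, from 250 before to 50 after a start site, were found for 37 of the 44 genes, in 47 windows. No window was matched for *Ctsb*, *Ctsh*, *Hgsnat*, *Atp6v0d2*, *Atp6v1b2*, *Atp6v1c1* or *Atp6v1h*. The E-box CACGTG stood in 13 of the 47 windows (27.7%), beside 7.15% of all 32851 promoter windows of the same length, and these belonged to 13 genes. The longer core TCACGTGA, which contains the E-box, stood in 6 of them (12.8%), beside 0.974% of all windows. Both motifs read the same on either strand. The 6 genes with the core were *Ctsa*, *Ctsd*, *Cln3*, *Mcoln1*, *Atp6v0d1* and *Atp6v1a*, which are peptidases, membrane proteins and subunits of both sectors of the pump. A match is a description of the letters and not a measured binding site.

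The promoters of 4 genes show the range, with the E-box in capitals, or all letters of the longer core where that is present. *Naglu* (chr11:101069844-101070143, plus strand) is shown because it had the smallest p-value of the set between the genotypes, and its only E-box begins 73 bases before the start site. *Mcoln1* (chr8:3500269-3500568, plus strand), the lysosomal calcium channel, has an E-box 71 and another, inside the longer core, 45 bases before the start. *Atp6v1a* (chr16:44139210-44139509, minus strand), the catalytic subunit of the pump, has the core alone. *Lamp1* (chr8:13158911-13159210, plus strand) has 4 E-boxes within 61 bases of the start and none of them in the longer form.
Naglu: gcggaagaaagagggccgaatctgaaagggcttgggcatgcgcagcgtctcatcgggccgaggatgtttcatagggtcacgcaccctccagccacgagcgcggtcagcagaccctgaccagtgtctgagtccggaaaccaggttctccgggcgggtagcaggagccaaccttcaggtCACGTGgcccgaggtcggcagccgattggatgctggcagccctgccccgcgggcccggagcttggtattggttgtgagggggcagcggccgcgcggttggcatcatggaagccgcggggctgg
Mcoln1: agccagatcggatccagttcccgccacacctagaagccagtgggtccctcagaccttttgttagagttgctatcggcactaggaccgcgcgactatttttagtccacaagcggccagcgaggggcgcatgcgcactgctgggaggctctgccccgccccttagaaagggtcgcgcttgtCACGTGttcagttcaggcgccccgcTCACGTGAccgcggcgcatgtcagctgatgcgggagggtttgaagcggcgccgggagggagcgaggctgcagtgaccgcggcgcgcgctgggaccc
Atp6v1a: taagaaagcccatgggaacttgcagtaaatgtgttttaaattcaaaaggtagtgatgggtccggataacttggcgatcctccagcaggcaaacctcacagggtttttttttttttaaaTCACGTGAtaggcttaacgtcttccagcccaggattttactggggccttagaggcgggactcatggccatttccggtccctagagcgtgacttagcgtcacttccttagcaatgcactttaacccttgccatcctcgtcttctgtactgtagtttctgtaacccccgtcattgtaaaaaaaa
Lamp1: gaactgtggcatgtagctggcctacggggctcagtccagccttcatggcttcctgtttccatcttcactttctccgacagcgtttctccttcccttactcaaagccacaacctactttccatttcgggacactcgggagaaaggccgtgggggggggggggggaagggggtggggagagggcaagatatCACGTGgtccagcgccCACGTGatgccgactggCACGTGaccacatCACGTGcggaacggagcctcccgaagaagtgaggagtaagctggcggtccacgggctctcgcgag

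Genes with and without these letters differed little between the genotypes. The log2 fold changes (CD1d-KO over WT, positive where CD1d-KO was higher) of the 6 genes with the longer core ran from 0.03 to 0.11. The median of the 13 genes with an E-box was 0.08, and that of the 24 other genes with a window was -0.0024. *Naglu* was the 1 gene among the 13 with an unadjusted p under 0.05, against 3 of the 24, beside 12.4% of all genes tested. *Hgsnat*, which also passed that p, had no window and is in neither count.

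The libraries held 13698864 to 19059432 expected counts each. The 7 macrophage markers summed to 21839 to 30925 TPM (transcript levels scaled for gene length and depth) in a library. *Lyz2* ran from 16040 to 25764 TPM, *Cd14* from 2375 to 3763, *Csf1r* from 794 to 1146, *Itgam* from 628 to 870 and *Adgre1* from 318 to 467. *Mertk* was lower, at 24.2 to 35.2 TPM. *Fcgr1* varied widely, from 3.65 to 140 TPM in WT and from 20.6 to 155 in CD1d-KO libraries. RNA of other cells was present at lower levels. B cell markers summed to 113 to 875 TPM in a library, neutrophil markers to 118 to 216 (*Ly6g* at 0 in all 8 libraries), T and NK cell markers to 4.97 to 30.2 (*Ncr1* at 0) and 6 mesothelial markers to at most 0.81 (*Krt19* at 0). The deleted gene *Cd1d1* had 68.2, 175, 96.1 and 141 normalized counts in WT replicates 1, 2, 3 and 5, and 1.1, 0 and 1.1 in CD1d-KO replicates 2, 3 and 5. The library labelled CD1d-KO replicate 1 had 60.7, which goes against its label, so results are also given without replicate 1, the pair that holds it. Normalized counts are counts scaled by TMM factors to the mean library size. Across all 13040 genes the median log2 fold change was 0.0047.

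The lysosomal genes were among the abundant transcripts of these cells. Summed over the 44 genes, the level was 11159 ± 1188 TPM in the WT and 11426 ± 892 TPM in the CD1d-KO libraries (SD, n = 4 each), or 0.994% to 1.28% of all TPM in a library. The difference between the genotypes was smaller than the spread within either. Within pairs, the CD1d-KO sum was the higher in replicates 1, 2 and 5 and the lower in replicate 3. The median member stood at 106 TPM, beside 11.9 TPM over all genes tested, and 41 of the 44 were above that value. *Ctsd*, *Grn* and *Ctsb* were among the 100 most abundant genes of the cells, at 1603, 1177 and 1099 TPM. *Atp6v0d2* at 0.854 TPM, *Sgsh* at 1.56 and *Manba* at 8.48 were the 3 members under the median.

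**Figure D1:**
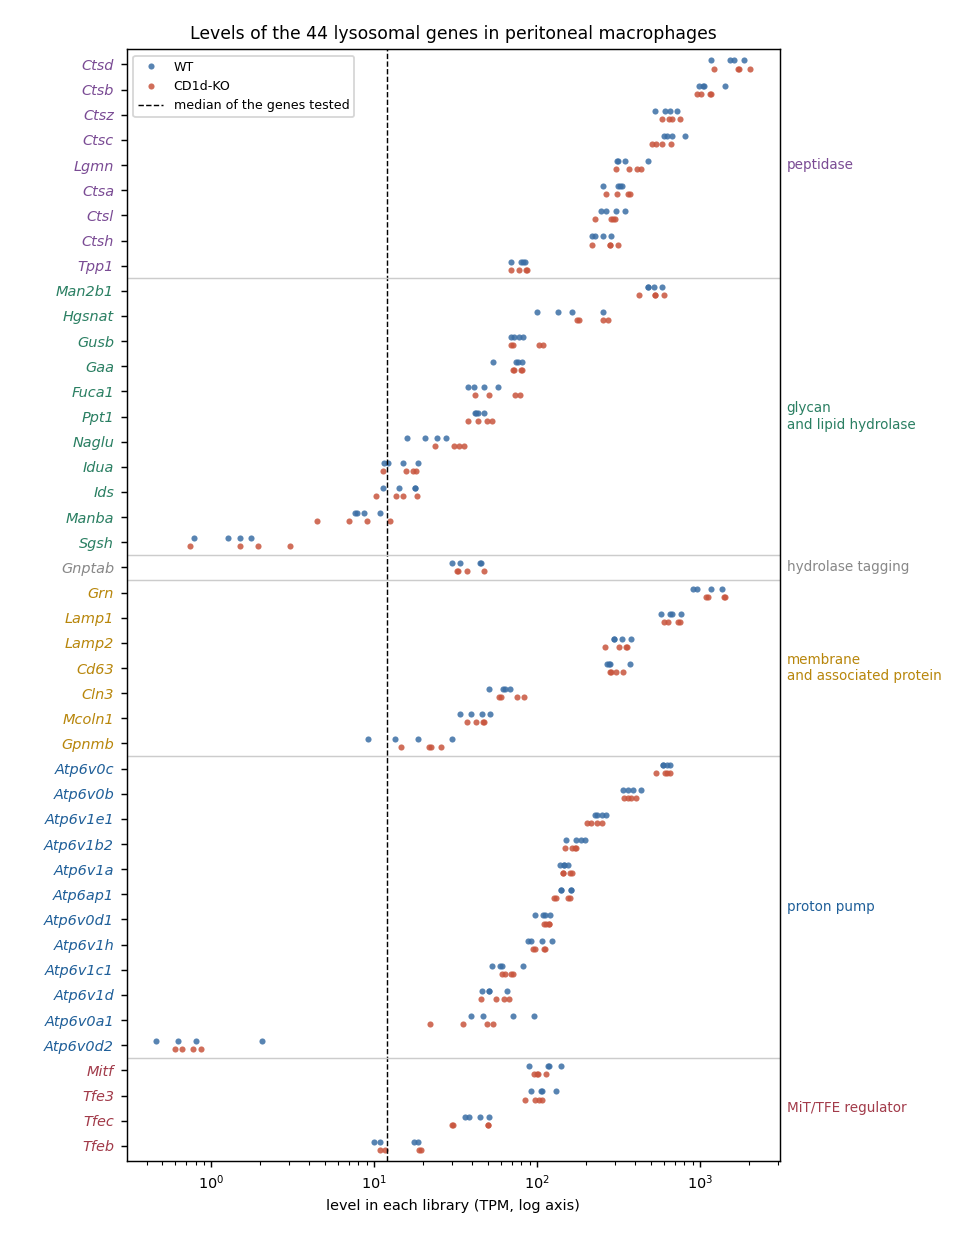
Level of each of the 44 lysosomal genes in TPM on a log axis, grouped by role, with 1 point per library (WT blue, CD1d-KO red) and the median of all genes tested as a dashed line. The points of the genotypes lie on top of each other for most genes, 41 of the 44 genes average above the dashed line at 11.9 TPM, and *Atp6v0d2* and *Sgsh* stand far to the left.

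The genotypes differed little over the set. With edgeR's quasi-likelihood test and Benjamini-Hochberg adjustment over all genes, 0 of the 44 genes passed the thresholds of the study, which ask for a fold change above 1.5 and an adjusted p under 0.01 and which 0.0383% of all genes tested passed. DESeq2 also called 0 of the 44 at those thresholds (0.873% of all genes). At an unadjusted p under 0.05, 5 of the 44 differed (12.4% of all genes tested), 3 higher in CD1d-KO pMacs (7.35% of all genes) and 2 lower (5.01%). Without the pairing of replicate numbers 1 was higher (1.62% of all genes) and 0 were lower (1.16%). At an adjusted p under 0.05 there was 1 gene, *Naglu*, or 2.27% of the members (0.406% of all genes). At an adjusted p under 0.01 without a fold limit DESeq2 called *Naglu*, *Hgsnat* and *Atp6v0a1*, or 6.82% of the members (1.45% of all genes).

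At the unadjusted p, 11.4% of the members differed, close to the share of all genes. The median log2 fold change of the members was 0.034, and without replicate 1 it was -0.00038. In that fit 2 members were higher (4.55%, beside 5.55% of all genes) and 2 lower (4.55%, beside 3.68%) at an unadjusted p under 0.05. In 8 genes the CD1d-KO library was the higher of its pair 4 times out of 4 (18.2% of the members, 10.6% of all genes). These were *Naglu*, *Hgsnat*, *Gusb*, *Idua*, *Grn*, *Mcoln1*, *Cln3* and *Atp6v0d1*. In *Ctsc*, *Atp6v0a1*, *Atp6v1b2* and *Atp6ap1*, or 9.09% of the members, it was the lower in every pair (10.1% of all genes). In 0 of the 44 did the 4 WT and the 4 CD1d-KO values fail to overlap (1.04% of all genes did so upwards and 0.913% downwards).

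The data bounded most of the differences. In 38 of the 44 genes (86.4%) the 95% confidence interval of the log2 fold change lay inside 1.5-fold either way, which held for 62.9% of all genes tested. The exceptions were *Naglu*, *Hgsnat* and *Atp6v0a1*, which had the 3 smallest p-values, and *Sgsh*, *Gpnmb* and *Atp6v0d2*, which had wide intervals. The 44 are well counted genes, with a median standard error of 0.08 beside 0.12 over all genes.

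**Figure D2:**
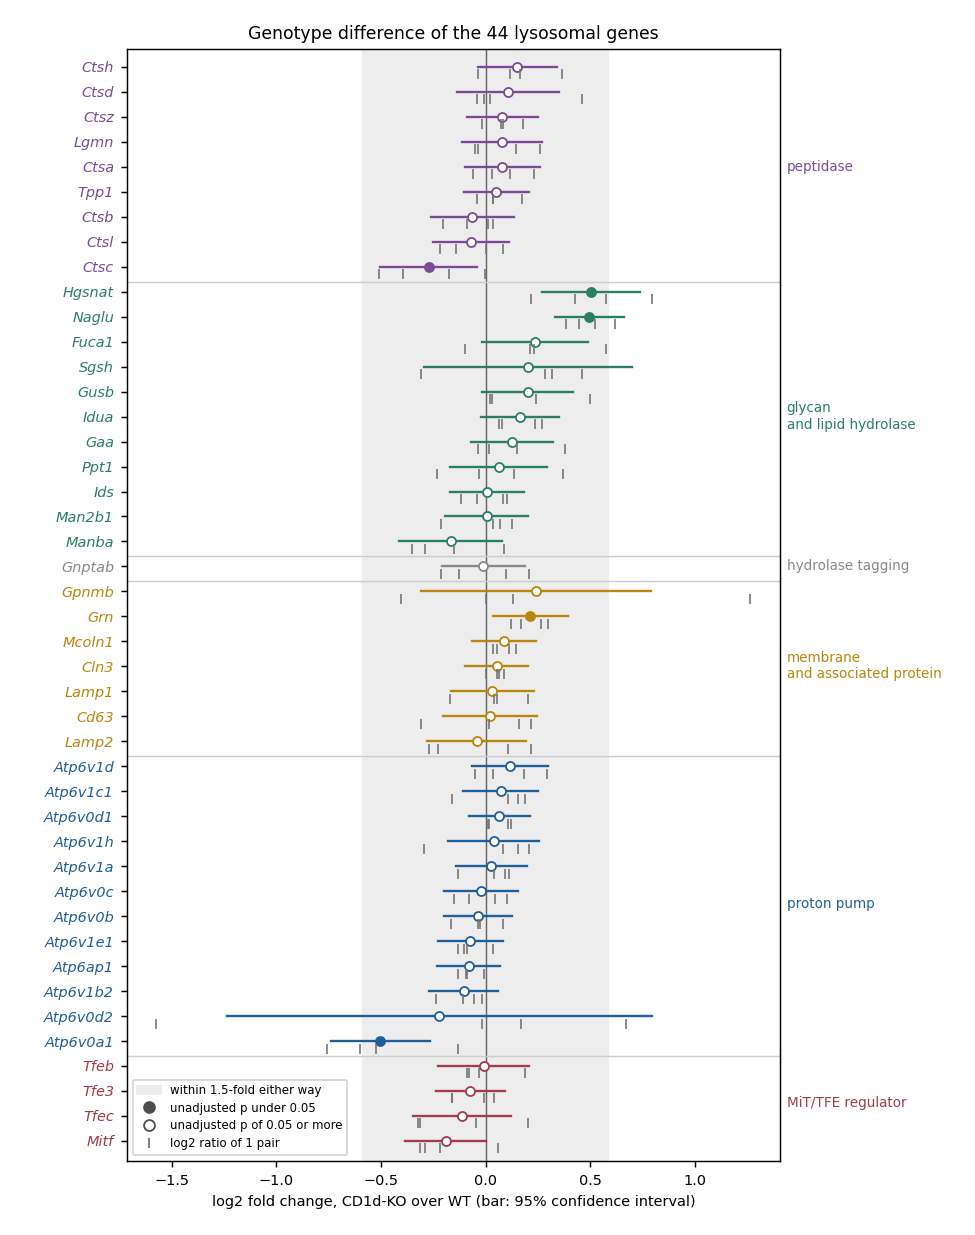
Log2 fold change (CD1d-KO over WT, edgeR) of the 44 genes by role with 95% confidence intervals, filled where the unadjusted p was under 0.05, with the 4 pair ratios as small ticks. The 44 points lie inside the grey band of 1.5-fold either way, and the intervals of *Hgsnat*, *Naglu*, *Sgsh* and *Gpnmb* reach beyond it to the right, that of *Atp6v0a1* to the left and that of *Atp6v0d2* on both sides.

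The clearest difference lay in the hydrolases of sugar chains. *Naglu* (ENSMUSG00000001751, chromosome 11 of GRCm38 from 101070012 to 101077672) encodes α-N-acetylglucosaminidase, which removes terminal N-acetylglucosamine from heparan sulphate. Its normalized counts were 432, 421, 703 and 587 in WT replicates 1, 2, 3 and 5, and 664, 606, 918 and 801 in the CD1d-KO replicates. Each CD1d-KO library was above the WT library of its number, although the groups as a whole overlapped. The log2 fold change was 0.49 (standard error 0.07, 95% interval 0.33 to 0.66), a 1.41-fold difference, with an adjusted p of 0.0435 from edgeR. DESeq2 gave an adjusted p of 0.00149. Without replicate 1 the log2 fold change was 0.45, and no fit that left out a pair kept the adjusted p under 0.05 (0.0527 to 0.203 from edgeR). The edgeR fit that ignored the pairing gave an adjusted p of 0.997.

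*Hgsnat* (ENSMUSG00000037260, chromosome 8 from 25944453 to 25976753) encodes the membrane enzyme that acetylates heparan sulphate in the step just before the one of *Naglu*. Its normalized counts were 1965, 3140, 5570 and 3575 in the WT libraries and 3405, 4224, 6475 and 5319 in the CD1d-KO libraries, in the order of replicates 1, 2, 3 and 5. The CD1d-KO library was again the higher in each pair, while the WT values alone spanned 2.84-fold. The log2 fold change was 0.50 (standard error 0.10, 95% interval 0.27 to 0.73) with an unadjusted p of 0.00117 and an adjusted p of 0.108 from edgeR. DESeq2 gave an adjusted p of 0.00112, and without replicate 1 the log2 fold change was 0.41 (adjusted p = 0.286, edgeR).

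The remaining enzymes of heparan sulphate breakdown gave no difference past the test. *Gusb* (β-glucuronidase, log2 fold change 0.20, 95% interval -0.02 to 0.42), *Idua* (α-iduronidase, 0.16, -0.02 to 0.35), *Sgsh* (sulphamidase, 0.20, -0.30 to 0.70) and *Ids* (iduronate sulphatase, 0.01, -0.17 to 0.18) did not pass an unadjusted p of 0.05. The 6 heparan sulphate enzymes had a median log2 fold change of 0.20 with 6 of 6 above 0 (51.0% of all genes tested). Of these, *Ids* fell below 0 with upper quartile factors, without a filter and on the TPM scale. The CD1d-KO library was the higher in all pairs for 4 of the 6 (10.6% of all genes). Without replicate 1 the median was 0.14 with 5 of 6 above 0, and *Gusb* was at 0.10. This grouping was made after the values were seen, and so it is a description. *Sgsh* was the rarest of the 6 at 1.32 ± 0.41 TPM in WT and 1.80 ± 0.96 in CD1d-KO pMacs (SD, n = 4), and *Hgsnat* the most abundant at 163 ± 65.9 and 221 ± 49.97 TPM.

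The other hydrolases of glycans and lipids showed no difference past the test. *Man2b1*, lysosomal α-mannosidase and the most abundant of the role at 517 TPM, was level to within its error (log2 fold change 0.0048, 95% interval -0.19 to 0.20). *Fuca1*, the α-fucosidase, had a log2 fold change of 0.24 (-0.02 to 0.49), *Gaa*, which degrades glycogen, 0.13 (-0.07 to 0.32), and *Ppt1*, which removes palmitate from proteins, 0.06 (-0.17 to 0.29). *Manba*, β-mannosidase, was the only member on the chromosome of *Cd1d1*, 48.5 Mb away from it, and the only 1 of the 11 below 0 (-0.17, 95% interval -0.41 to 0.08), although *Man2b1* and *Ids* also fell below it with upper quartile factors and without a filter. The median over the 11 was 0.16, and in pairs 1, 2, 3 and 5 it was 0.32, 0.06, 0.03 and 0.23, the largest value belonging to the pair of the library labelled CD1d-KO replicate 1. *Gnptab*, which starts the mannose 6-phosphate tag on these hydrolases, was at -0.01 (-0.21 to 0.19).

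**Figure D3:**
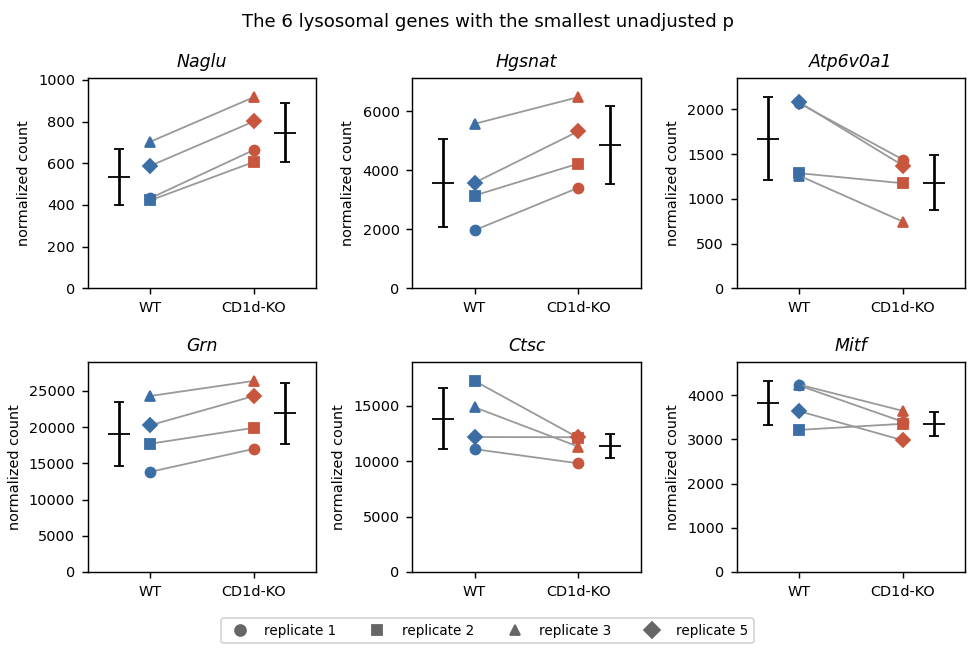
Normalized counts in each library of the 6 lysosomal genes with the smallest unadjusted p, with grey lines joining libraries of the same replicate number and black bars for the mean ± SD (n = 4). All 4 lines rise in *Naglu*, *Hgsnat* and *Grn* and all fall in *Atp6v0a1* and *Ctsc*, though hardly in replicate 5 of *Ctsc*. The values of the genotypes overlap in each of the 6 genes.

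In the proton pump 1 subunit differed at an unadjusted p under 0.05. *Atp6v0a1* (ENSMUSG00000019302, chromosome 11 from 101009452 to 101063719) encodes an a subunit, the membrane part along which protons pass and which directs the pump to its membrane. It had 2069, 1286, 1259 and 2081 normalized counts in WT replicates 1, 2, 3 and 5 and 1438, 1174, 745 and 1372 in the CD1d-KO replicates. The CD1d-KO library was the lower in each pair, least so in replicate 2. The log2 fold change was -0.50 (standard error 0.10, 95% interval -0.74 to -0.27) with an unadjusted p of 0.00131 and an adjusted p of 0.113 from edgeR. DESeq2 gave an adjusted p of 0.00456. Without replicate 1 the log2 fold change was -0.50 with an adjusted p of 0.303, and without replicate 2 it was -0.62 with an adjusted p of 0.0259 (edgeR). The adjusted p was 0.327 without replicate 3, 0.447 without replicate 5 and 0.997 without the pairing.

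*Atp6v0a1* and *Naglu* are neighbours on chromosome 11, transcribed in the same direction, with 6292 bases between the end of *Atp6v0a1* and the start of *Naglu*. They stood on opposite sides of 0. The RefSeq window of *Atp6v0a1*, whose start site lies 946 bases inside the annotated gene, held no E-box.

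The a subunit comes from several genes, and *Tcirg1*, the form typical of osteoclast and macrophage lysosomes, was the leading one here. It is outside the set and was looked at after the values were seen. Of the summed TPM of the a subunit genes, *Tcirg1* held 70.3% ± 12.5 in WT and 78.8% ± 7.66 in CD1d-KO pMacs (SD, n = 4), *Atp6v0a1* 22.3% ± 10.8 and 14.0% ± 5.92, and *Atp6v0a2* 7.39% ± 2.13 and 7.16% ± 2.03. *Atp6v0a4* had 0 counts. The share of *Atp6v0a1* was 36.8%, 17.6%, 11.6% and 23.2% in WT replicates 1, 2, 3 and 5 and 21.1%, 13.3%, 6.69% and 15.1% in the CD1d-KO replicates. It was lower in the CD1d-KO library of each pair, and the groups overlapped. *Tcirg1* itself had a log2 fold change of 0.19 (standard error 0.09, adjusted p = 0.423, edgeR) and *Atp6v0a2* of -0.02.

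The other pump genes lay between -0.22 and 0.12 on the log2 scale. In the membrane sector, *Atp6v0c*, which forms the rotor ring, was at -0.02 (95% interval -0.20 to 0.15), *Atp6v0b* at -0.04 (-0.20 to 0.13) and *Atp6v0d1* at 0.06 (-0.08 to 0.21). In the cytosolic sector, which burns the ATP, *Atp6v1a* was at 0.03 (-0.14 to 0.20), *Atp6v1b2* at -0.10 (-0.27 to 0.06), *Atp6v1c1* at 0.07, *Atp6v1d* at 0.12, *Atp6v1e1* at -0.07 and *Atp6v1h* at 0.04. The accessory subunit *Atp6ap1* was at -0.08 (-0.23 to 0.07). *Atp6v1b2* and *Atp6ap1* were lower in the CD1d-KO library of all 4 pairs without passing the test. *Atp6v0d2*, the d subunit of osteoclasts, was rare, with *Atp6v0d1* making up 99.1% of the summed d subunit TPM in WT and 99.4% in CD1d-KO pMacs. It had 9.74, 15.0, 52.9 and 20.0 normalized counts in the WT libraries and 16.7, 17.2, 16.4 and 19.8 in the CD1d-KO libraries, so that its fold change of -0.22 rested on WT replicate 3 and turned to 0.31 without that pair.

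**Figure D4:**
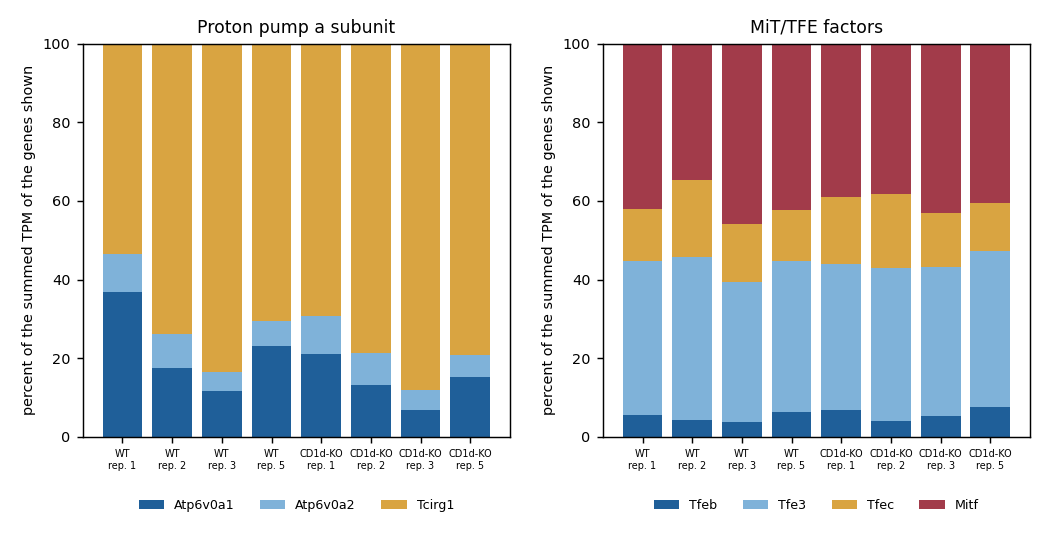
Share of each gene in the summed TPM of the proton pump a subunit genes (left) and of the MiT/TFE factors (right), in percent, 1 bar per library. *Atp6v0a1* takes 11.6% to 36.8% in the WT bars and 6.69% to 21.1% in the CD1d-KO bars, with *Tcirg1* the largest share in every bar, while the split among *Mitf*, *Tfe3*, *Tfec* and *Tfeb* is alike in both genotypes.

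The peptidases had the largest summed level of the roles, and 1 of the 9 differed at an unadjusted p under 0.05. *Ctsc* (ENSMUSG00000030560, chromosome 7 from 88278085 to 88310888) encodes dipeptidyl peptidase I, which activates the serine proteases of immune granules. Its normalized counts were 11095, 17258, 14875 and 12191 in WT replicates 1, 2, 3 and 5 and 9812, 12114, 11318 and 12169 in the CD1d-KO replicates. Replicates 2 and 3 carried the difference, and in replicate 5 both libraries were almost equal. *Ctsc* had a log2 fold change of -0.27 (standard error 0.10, 95% interval -0.50 to -0.04) with an unadjusted p of 0.0272 and an adjusted p of 0.327 from edgeR.

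Among the other peptidases the log2 fold changes ran from -0.07 to 0.15. *Ctsd*, the aspartic protease, was at 0.11 (95% interval -0.14 to 0.35), *Ctsb* and *Ctsl*, cysteine endopeptidases, at -0.06 (-0.26 to 0.13) and -0.07 (-0.25 to 0.11), and *Ctsz*, a carboxypeptidase, at 0.08 (-0.09 to 0.25). *Lgmn*, the asparaginyl endopeptidase, was at 0.08 (-0.11 to 0.27), *Ctsh*, an aminopeptidase, at 0.15 (-0.04 to 0.34), and *Ctsa*, the protective protein of β-galactosidase and neuraminidase, at 0.08 (-0.10 to 0.26). *Tpp1*, a tripeptidyl peptidase, was at 0.05 (-0.10 to 0.20). The summed TPM of the 9 peptidases was 5255 ± 658 in WT and 5311 ± 487 in CD1d-KO pMacs (SD, n = 4), a difference well inside the spread. Within pairs, the CD1d-KO sum was the higher in replicates 1 and 5 and the lower in replicates 2 and 3.

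Of the membrane and associated proteins, *Grn* alone had an unadjusted p under 0.05. *Grn* (ENSMUSG00000034708, chromosome 11 from 102430315 to 102437048) encodes progranulin, a secreted protein that is taken up into the lysosome and supports its hydrolases. It had 13812, 17694, 24282 and 20239 normalized counts in WT replicates 1, 2, 3 and 5 and 16991, 19896, 26367 and 24285 in the CD1d-KO replicates. The step within each pair was small beside the 1.76-fold span of the WT libraries. The log2 fold change was 0.21 (standard error 0.08, 95% interval 0.03 to 0.39) with an unadjusted p of 0.0255 and an adjusted p of 0.319 from edgeR, and it was 0.18 without replicate 1.

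The proteins that line the lysosome were bounded closely. *Lamp1* was at a log2 fold change of 0.03 (95% interval -0.17 to 0.23), *Lamp2* at -0.04 (-0.28 to 0.19) and the tetraspanin *Cd63* at 0.02 (-0.20 to 0.24). *Mcoln1* was at 0.09 (-0.06 to 0.24) and *Cln3*, whose loss causes a juvenile lysosomal disease, at 0.05 (-0.10 to 0.20). *Gpnmb*, a glycoprotein that macrophages make under lysosomal stress, had 240, 397, 811 and 583 normalized counts in the WT libraries and 578, 397, 612 and 638 in the CD1d-KO libraries. Its log2 fold change of 0.24 had an interval from -0.31 to 0.79, and it became -0.09 without replicate 1.

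The 4 MiT/TFE factors all had log2 fold changes below 0, although that of *Tfeb* turned above 0 on log2(TPM + 1) (0.089) and without replicate 1 (0.022), and none passed an unadjusted p of 0.05. *Mitf* had 4219, 3214, 4239 and 3638 normalized counts in WT replicates 1, 2, 3 and 5 and 3397, 3353, 3644 and 2979 in the CD1d-KO replicates. It was lower in the CD1d-KO library of pairs 1, 3 and 5, with a log2 fold change of -0.19 (standard error 0.08, unadjusted p = 0.0534 and adjusted p = 0.410, edgeR). *Tfec*, the member of the family found mainly in macrophages, was at -0.11 (95% interval -0.35 to 0.12), *Tfe3* at -0.07 (-0.24 to 0.09) and *Tfeb* at -0.01 (-0.23 to 0.21). *Tfeb* was the least abundant at 14.7 TPM, or 4.99% ± 1.14 of the summed TPM of the 4 in WT and 5.93% ± 1.58 in CD1d-KO pMacs (SD, n = 4). *Mitf* held 41.3% and 40.1%, *Tfe3* 38.6% and 38.4%, and *Tfec* 15.2% and 15.5%. These are transcript levels. The factors act by moving to the nucleus, which RNA does not show.

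The replicate number accounted for far more of the variation than the genotype. In the median member it carried 77.3% of the sum of squares of the log2 levels, and the genotype 5.58% (64.8% and 7.14% over all genes tested). The replicate number has 4 levels and the genotype 2, and a factor with more levels takes a larger share even without an effect. The 2 libraries numbered 3 were high: 26 of the 44 genes (59.1%) had their highest value in replicate 3 in both genotypes, beside 17.6% of all genes. The median member stood 0.25 on the log2 scale above its mean over the libraries of its genotype in WT replicate 3, 0.11 above it in CD1d-KO replicate 3 and 0.15 below it in WT replicate 1. The median of the 4 MiT/TFE factors was -0.07 and -0.10 there, although *Mitf* was itself highest in replicate 3 in both genotypes. *Atp6v0a1* had its lowest value of each genotype in replicate 3.

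**Figure D5:**
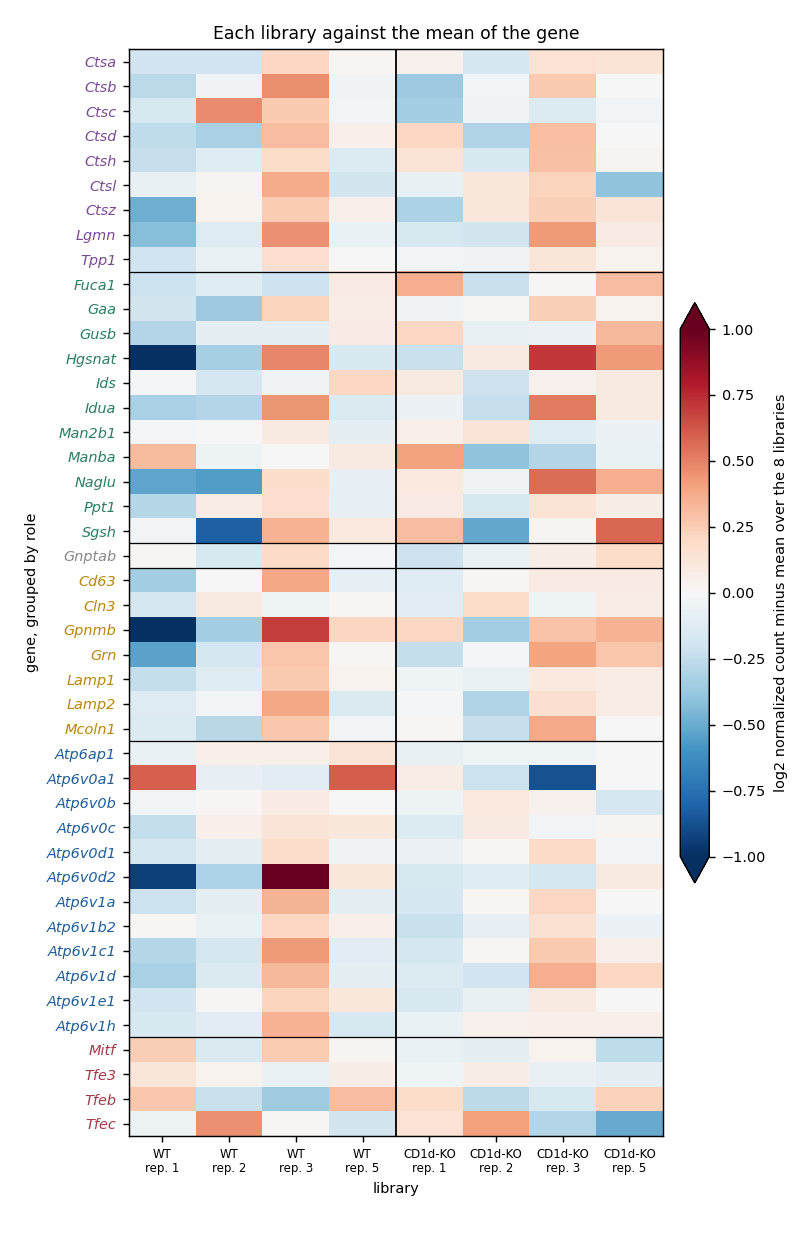
Log2 normalized count of each gene in each library minus the mean of the gene over the 8 libraries, with genes grouped by role. The columns of replicate 3 are red for most hydrolases, membrane proteins and pump genes in both genotypes (26 of 44 genes peak there in both), the column of WT replicate 1 is mostly blue, and *Atp6v0a1* has its lowest value of each genotype in replicate 3.

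Technical and cellular measures also differed between replicates. The TMM factors were 0.931 and 0.904 in the replicates numbered 3 and at least 1.09 in both numbered 1. The summed mast cell markers were highest in replicate 3, at 83.7 TPM in WT and 133 TPM in CD1d-KO pMacs, and were higher in the CD1d-KO library of each pair (22.6 to 83.7 TPM in WT and 55.4 to 133 in CD1d-KO libraries). Most of the sum was *Hdc* (log2 fold change 0.81, adjusted p = 0.0555, edgeR), and the 4 other mast cell genes tested were between -0.85 and -0.27 without passing an unadjusted p of 0.05. Between the genotypes, the markers of large peritoneal macrophages, the resident cells of the cavity, summed to 2157 to 2800 TPM in WT and 2545 to 3546 in CD1d-KO libraries. At an unadjusted p under 0.05 (edgeR), 5 of the 9 were higher (55.6%, beside 7.35% of all genes) and 0 lower (5.01% of all genes). Of the 9, 0 passed an adjusted p of 0.05. Log2 fold changes were above 0 in 6 of the 9, and below 0 in *Gata6* (-0.09), *Cd9* (-0.27) and *Alox15* (-0.12). The counts for this list are from the paired fit of all 8 libraries. Markers of small peritoneal macrophages and dendritic cells summed to 1184 to 1999 TPM in WT and 712 to 2567 in CD1d-KO libraries. At the unadjusted p, 0 of the 9 tested were higher (7.35% of all genes) and 1 lower (11.1%, beside 5.01%). The neutrophil list summed to 118 to 173 TPM in WT and 187 to 216 in CD1d-KO libraries, nearly all of it *Csf3r* and *S100a8*, while *Ly6g* was at 0 and *S100a9* at no more than 0.24 TPM. B cell markers ran from 171 to 510 TPM in WT and from 113 to 875 in CD1d-KO libraries. The part of these measures in the lysosomal values was not tested. In these bulk samples, fewer cells of a type and less RNA per cell cannot be told apart.

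Lysosomal genes outside the set were compared in the same way. Of 118 further genes in 6 pathway lists, 110 were tested, with a median log2 fold change of 0.05, and 17 were higher (15.5%, beside 7.35% of all genes) and 8 lower (7.27%, beside 5.01%) at an unadjusted p under 0.05. Without replicate 1 they were 7 (6.36%, beside 5.55%) and 2 (1.82%, beside 3.68%). Without the pairing they were 3 (2.73%, beside 1.62%) and 1 (0.909%, beside 1.16%). *Ctso*, a cysteine cathepsin, was the 1 gene with an adjusted p under 0.05. It had 381, 440, 461 and 387 normalized counts in WT replicates 1, 2, 3 and 5 and 629, 638, 848 and 764 in the CD1d-KO replicates, with no overlap. The log2 fold change of *Ctso* reached 0.78 (standard error 0.09) with an adjusted p of 0.0230 from edgeR. The adjusted p was 0.0817 without replicate 1, 0.0125 without replicate 2, 0.152 without replicate 3, 0.157 without replicate 5 and 0.224 without the pairing. *Ctso* lies 5.04 Mb from *Cd1d1*, in a stretch of chromosome 3 that can differ between a targeted strain and its controls, and the genotype and this flanking DNA cannot be told apart.

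The other hydrolases and activators, 36 of 37 tested, included 10 higher (27.8%, beside 7.35% of all genes) and 2 lower (5.56%, beside 5.01%) at an unadjusted p under 0.05. These counts are from the paired fit of all 8 libraries. Over the 6 lists together, the 17 higher genes of that fit became 7 without replicate 1 and 3 without the pairing. *Man2b2*, an α-mannosidase, was at a log2 fold change of 0.33 (adjusted p = 0.144) and *Gla*, α-galactosidase A, at 0.34 (adjusted p = 0.212), both higher in 4 of 4 pairs. *Lipa*, lysosomal acid lipase, which frees cholesterol and fatty acids from lipoproteins, was at -0.32 (adjusted p = 0.359, edgeR). The WT libraries held 15481 ± 2489 normalized counts of *Lipa* and the CD1d-KO libraries 12324 ± 1262 (SD, n = 4). Both libraries of replicate 2 were almost equal, and without replicate 3 the log2 fold change was -0.17. *Hyal2* was at -0.27 (adjusted p = 0.371).

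Among the other membrane proteins, 23 of 24 tested, 4 were higher (17.4%, beside 7.35% of all genes) and 2 lower (8.70%, beside 5.01%) at an unadjusted p under 0.05. The 3 higher genes with the smallest p were *Clcn7*, the chloride and proton exchanger of the lysosome (log2 fold change 0.33, adjusted p = 0.144), *Ctns*, the cystine exporter (0.28, adjusted p = 0.170), and *Scarb2*, the receptor that carries glucocerebrosidase to the lysosome (0.41, adjusted p = 0.233). *Slc29a3*, a nucleoside transporter, was at -0.25 (adjusted p = 0.244) and *Mfsd12* at -0.23 (adjusted p = 0.290). Of the 10 other pump and assembly genes tested, 0 passed (12.4% of all genes did), with a median of -0.02.

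In the sorting route to the lysosome, 0 of 8 genes were higher (7.35% of all genes) and 2 lower (25%, beside 5.01%) at an unadjusted p under 0.05. Of the 8 log2 fold changes, 4 were above 0. *Sort1*, sortilin, was at -0.32 (adjusted p = 0.233, and -0.20 without replicate 5) and *M6pr*, the cation-dependent mannose 6-phosphate receptor, at -0.18 (adjusted p = 0.358), both lower in 4 of 4 pairs. In the mTORC1 group that controls the MiT/TFE factors, 17 of 18 genes were tested. At an unadjusted p under 0.05, 2 were higher (11.8%, beside 7.35% of all genes) and 1 lower (5.88%, beside 5.01%). The higher genes were *Fnip2* (0.41, adjusted p = 0.105) and its partner *Flcn*, folliculin (0.18, adjusted p = 0.348). The lower gene was *Rragd*, a Rag GTPase (-0.40, adjusted p = 0.359). *Fnip2* lies 7.43 Mb from *Cd1d1*. Of the 16 autophagy genes, *Uvrag* was at 0.35 (adjusted p = 0.329) and *Gabarapl1* at -0.25 (adjusted p = 0.325, and -0.15 without replicate 5), and the median of the list was 0.0013.

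Some members share sequence with other genes, and a strand setting for the counting is not given in the sources used here. Exon bases were shared with another annotated gene by 14 of the 44, and by 9 with a gene of at least 50 mean normalized counts. *Ctsa* shares 495 exon bases with *Pltp* on the opposite strand, a gene with 16644 ± 1668 normalized counts in the WT libraries and 10873 ± 1234 in the CD1d-KO libraries (SD, n = 4). *Ctsb* shares 774 with *Fdft1*, which was rarer, at 615 ± 192 and 460 ± 168, than *Ctsb* by far. *Ctsd* shares 808 with *Gm49369* on its own strand and *Cln3* 442 with *Apobr*. *Idua*, one of the heparan sulphate enzymes, shares 124 with *Dgkq* (mean of 375 normalized counts, beside 366 for *Idua*) and 141 with *Slc26a1*. *Ppt1* shares 129 with *Cap1* (5440, beside 1001 for *Ppt1*). The values of these genes are uncertain to that extent. *Naglu* and *Hgsnat* shared no exon bases with another gene. The named pseudogenes of *Cd63* and *Atp6v0c* held at most 27.7 and 26.1 counts.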

How the data were processed

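The 8 libraries, 4 per genotype, were read by the authors from a single end over 75 bases. Reads were trimmed (Cutadapt), aligned to GRCm38 (STAR 2.5.2a) and assigned to the genes of Ensembl release 86 (RSEM 1.3.0). A strand setting is not given in the sources used here. The deposited expected counts are estimated reads per gene without normalization. RSEM divides reads that match several genes, so near-identical genes share them. The deposited TPM come from the same reads, scaled for gene length and depth.

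Groups and replicate numbers came from the library titles. Totals ran from 13698864 to 19059432 expected counts, and the number of libraries limits the precision more than depth. No library was a copy of another (smallest chi-square per degree of freedom 14.3 over 28 pairs of libraries). The study's model holds genotype and replicate number, so the number was used as a block. Same-numbered libraries deviated together from their genotype means (correlations across genes of 0.487, 0.387, 0.505 and 0.207 for numbers 1, 2, 3 and 5), although for WT replicate 5 a differently numbered CD1d-KO library came as close (0.220). The labels do not say what a number marks. In the fits with the block, p-values measure the spread of the genotype difference between these pairs.

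Counts were rounded, filtered with filterByExpr (13040 genes), normalized by TMM and tested with the quasi-likelihood test of edgeR 4.0.16 (R 4.3.3), with Benjamini-Hochberg adjustment over all genes tested. Standard errors and 95% intervals came from the same fit. Alternatives were RLE and upper quartile factors, no filter, at least 10 counts in every library, DESeq2 1.42.0, the bias-adjusted quasi-likelihood fit, limma-trend (limma 3.58.1) on log2(TPM + 1) and log2(TPM + 0.1), no block, each replicate number left out in turn, and the library labelled CD1d-KO replicate 1 left out without the block. The fits were also run on simulated counts that held no effect of replicate number, so that run cannot tell how the block behaves in these data.

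Gene IDs were matched to GENCODE M21 (48435 of 48795, 99.26%) and promoters to RefSeq windows on GRCm38.p6. The genes named are the 44 members, *Cd1d1*, and, from each of the 6 pathway lists, at most 3 higher and 3 lower genes by smallest p-value among those under 0.05. Further genes were named after their values were seen: the marker genes quoted, *Tcirg1*, *Atp6v0a2*, *Atp6v0a4* and the genes that overlap members. The members and lists were chosen with earlier results of these data known.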

Additional observations from a re-analysis of the deposited data

Results flagged for a closer look

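In each of the 88 groups of 4 libraries (44 genes in 2 genotypes) the highest and the lowest library were compared with the rest by Dixon's criterion for a distant value, and 3 values stood apart. Chance sets about 1 in 20 such groups apart. *Atp6v1h*, the regulatory H subunit of the proton pump, had 2345 normalized counts in WT replicate 3, where the other WT libraries had 1655 to 1705. The same gene had 1760 in the library labelled CD1d-KO replicate 1, below the 1897 to 1914 of the other CD1d-KO libraries. *Ids*, iduronate sulphatase, had 379.8 in CD1d-KO replicate 2, below the 452 to 467 of the others.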

How the results depend on the processing

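None of the 44 genes passed the study thresholds under any of the 14 alternatives, and the median log2 fold change ran from -0.00038 without replicate 1 to 0.081 without replicate 3. The fit with the pairing had 1 gene past an adjusted p of 0.05, *Naglu*. DESeq2 and the fit without a filter gave 3 each, and both limma fits, the fit with no replicate block and the one without CD1d-KO replicate 1 gave 0. Leaving out a pair gave 0 to 1. At an unadjusted p under 0.05 the 3 higher genes became 5 without a filter and 1 in both fits with no block (2 to 6 on leaving out a pair, 6 without replicate 2), and the 2 lower genes became 1 in both limma fits, 0 with no block and 1 without CD1d-KO replicate 1 (1 to 2). Of all genes, 5 passed the study thresholds, against 236 without a filter, 103 with DESeq2, 3 in both limma fits and 3 with no block (3 to 22 on leaving out a pair). The log2 fold change turned its sign in 35 of 616 comparisons of a member with an alternative, in 15 members whose own value was at most 0.24 either way. By setting, these were -0.00743 for *Man2b1* and -0.00645 for *Ids* with upper quartile factors, -0.00233 and -0.00105 without a filter, and -0.00178 for *Cd63* with no block. Without CD1d-KO replicate 1 they were 0.025 for *Ctsb*, -0.011 for *Man2b1*, -0.026 for *Ids*, 0.054 for *Gnptab* and 0.012 for *Atp6v0c*. On log2(TPM + 1) and log2(TPM + 0.1) they were -0.094 and -0.100 for *Ids*, 0.089 and 0.095 for *Tfeb* and, outside the set, 0.0056 and 0.0036 for *Hyal2*. On leaving out each pair the values ran from -0.010 to 0.16 for *Ctsd*, -0.033 to 0.077 for *Man2b1*, -0.028 to 0.048 for *Ids*, -0.043 to 0.16 for *Ppt1*, -0.083 to 0.058 for *Gnptab*, -0.025 to 0.099 for *Lamp1*, -0.13 to 0.035 for *Lamp2*, -0.045 to 0.13 for *Cd63*, -0.094 to 0.47 for *Gpnmb*, -0.074 to 0.0049 for *Atp6v0b*, -0.063 to 0.022 for *Atp6v0c*, -0.56 to 0.31 for *Atp6v0d2*, -0.019 to 0.15 for *Atp6v1h*, -0.069 to 0.022 for *Tfeb* and, outside the set, -0.036 to 0.021 for *Atp6v0a2*. The cause was not tested. With 4 libraries a genotype, 1 of which goes against its label, the number of libraries limits these values more than depth.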
